A study of Mus musculus with 2 samples.

Results

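The 10 genes described here serve the sensing of mechanical load: the ion channels Piezo1, Piezo2 and Trpv4, the transcriptional coactivators YAP (Yap1) and TAZ (Wwtr1), and Ccn1, Ccn2, Ankrd1, Amotl2 and Lats2, genes known to be switched on by YAP and TAZ. They were taken by symbol from the 32285 genes measured, and all 10 were found. RNA was counted in single cells of knee joint cartilage from wild-type (WT) mice. There were 2 libraries, 1 after DMM surgery, in which the medial meniscus is destabilised as a mouse model of osteoarthritis, and 1 after sham surgery. Each library pooled cells of 3 mice; the animals' age and the time after surgery are not given in the sources used here. In both, enzyme-released live cells negative for the blood, erythroid and endothelial markers CD45, Ter119 and CD31 had been sorted. With 1 library per group there is no replicate and no test between DMM and sham, and every interval below covers counting error only.

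Piezo channels are cation channels that open when the membrane is stretched, and Trpv4 is a calcium channel that chondrocytes use to respond to osmotic and mechanical load. YAP and TAZ are held in the cytoplasm by the Hippo kinases, enter the nucleus when cells are spread or under tension, and act there through TEAD transcription factors. Ccn1 and Ccn2 encode secreted matricellular proteins, Ankrd1 encodes an ankyrin repeat protein best known from muscle, and Amotl2 (an angiomotin) and Lats2 (a Hippo kinase) restrain YAP in turn.

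RefSeq windows on GRCm38.p6 were given for 8 of the 10 genes, and the 250 bases before each start site were searched for the TEAD recognition letters GGAATG on both strands (CATTCC on the other). These letters were present in 12.6% of 32851 windows of that length and in those of 5 of the 8 genes. Among the target genes, the windows of Lats2 held no match and are not printed, and no window of Ccn2 was used. The windows of the 3 target genes that held a match are printed. They run 5′ to 3′ along the gene's own strand, with the matching letters in capitals.
Ccn1 (chr3:145649986-145650235, minus strand): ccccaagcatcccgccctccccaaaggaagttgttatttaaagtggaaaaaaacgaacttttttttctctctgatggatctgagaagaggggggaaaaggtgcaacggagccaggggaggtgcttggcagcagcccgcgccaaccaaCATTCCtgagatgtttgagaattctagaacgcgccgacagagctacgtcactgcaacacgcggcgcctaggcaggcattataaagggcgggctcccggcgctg
Ankrd1 (chr19:36119845-36120094, minus strand): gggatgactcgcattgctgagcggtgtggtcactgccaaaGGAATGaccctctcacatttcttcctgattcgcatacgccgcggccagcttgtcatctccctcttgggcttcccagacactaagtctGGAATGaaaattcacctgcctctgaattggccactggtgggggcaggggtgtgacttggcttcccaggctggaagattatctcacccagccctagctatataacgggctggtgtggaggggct
Amotl2 (chr9:102717554-102717803, plus strand): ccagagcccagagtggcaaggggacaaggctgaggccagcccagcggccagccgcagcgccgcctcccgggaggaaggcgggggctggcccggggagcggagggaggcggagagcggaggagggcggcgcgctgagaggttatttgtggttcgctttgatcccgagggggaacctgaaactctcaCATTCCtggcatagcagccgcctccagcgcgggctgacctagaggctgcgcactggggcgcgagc
Ccn1 held a match 103 to 98 bases before its start site, Amotl2 held a match 65 to 60 bases before it, and Ankrd1 held matches beginning 210 and 123 bases before it. Yap1 held a match beginning 141 bases before its start and Wwtr1 a match beginning 136 bases before the first of its start sites. The windows of Piezo1, Trpv4 and Lats2 held none. A match describes letters only and is not evidence that a factor binds there.

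After filters on gene number, mitochondrial share and doublets, 9529 cells remained in the DMM library and 9529 in the sham library, with medians of 7859 and 8064 UMIs (unique molecular identifiers, each 1 captured RNA molecule). Among kept cells 17 barcodes occurred in both libraries. Clustering over both libraries gave 24 clusters, of which 19 had at least 50 cells in each library and 15 of those were connective tissue. The labels call the sorted cells superficial cells; by marker genes, however, 2010 DMM and 1969 sham cells were superficial zone chondrocyte-like, with Prg4 (lubricin) at 57816 CPM and 51843 CPM, and the rest were other types. CPM is a gene's UMI count per 1000000 UMIs of that population and library. A further 945 DMM and 1267 sham cells were chondrocyte-like, with Col2a1 at 21508 CPM and 23698 CPM. Other connective tissue was hypertrophic chondrocyte-like, synovial lining-like, fibroblast-like, osteoblast-like, marrow stromal-like or perivascular-like, or stayed unnamed and is called here by its leading genes. The names rest on clusters rebuilt from the counts, and 1 superficial-like cluster was led by Col10a1, a hypertrophic marker. Haemoglobin-rich clusters, 890 DMM and 1486 sham cells that remained after the Ter119 gate, are given beside some results as cells outside connective tissue.

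Piezo1 (chr8:122481698-122551329, minus strand, GRCm38) was detected in every cluster reported. In connective tissue its level was lowest in perivascular-like cells, at 35.1 CPM in DMM and 33.9 CPM in sham, and highest in the Ccl7 and Apod fibroblast-like cluster, at 236 CPM in DMM and 285 CPM in sham. Between these, most neighbours in the order overlapped in their levels, and the chondrocyte-like, superficial-like and fibroblast-like clusters ran from 173 to 236 CPM in DMM and from 218 to 285 CPM in sham. Piezo1 is also known as the red cell stretch channel, and haemoglobin-rich clusters together held 56.9 CPM in DMM and 65.7 CPM in sham. There, 41.2% of DMM cells and 37.6% of sham cells carried a Piezo1 UMI, against 2.70% and 2.36% for Trpv4 in the same cells. The Piezo1 share in these cells is thus far above that of a cartilage channel.

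Trpv4 (chr5:114622152-114658421, minus strand) was higher in cartilage than in the other connective clusters. It reached 237 CPM in DMM (95% interval 228 to 246) and 245 CPM in sham (238 to 253) in the Cnmd-led chondrocyte-like cluster, where 91.0% of DMM cells and 94.7% of sham cells carried a UMI. Hypertrophic-like cells held 152 CPM in DMM and 169 CPM in sham. An unnamed cartilage cluster led by Chil1, Lef1 and Pcp4 held 170 CPM in DMM and 179 CPM in sham, and the 3 superficial-like clusters lay between 87.0 and 107 CPM in DMM and between 90.6 and 109 CPM in sham. Fibroblast-like cells stood at 2.15 CPM in DMM and 3.38 CPM in sham, where 1.52% and 2.13% of cells carried a UMI, no more than in the haemoglobin-rich cells.

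Piezo2 (chr18:63010213-63387183, minus strand), known as the channel of touch and proprioceptive neurons, was confined to fewer clusters than Piezo1. Over the cluster profiles described below, its Pearson r was 0.54 with Piezo1 and 0.22 with Trpv4. The Chil1, Lef1 and Pcp4 cluster held 80.7 CPM in DMM and 93.2 CPM in sham, and the Angptl7, Npy and Slurp1 cluster held 52.4 CPM in DMM and 80.9 CPM in sham. The Ccl7 and Apod fibroblast-like cluster held 79.8 CPM in DMM and 41.0 CPM in sham. The Sfrp2, Cpxm1 and Itgbl1 cluster held 29.4 CPM in DMM and 83.3 CPM in sham. Osteoblast-like and marrow stromal-like clusters stayed under 4 CPM in both libraries, and the superficial-like class held 1.91 CPM in DMM and 6.46 CPM in sham. There, 1.49% of DMM cells and 2.95% of sham cells carried a UMI, against 0.787% and 0.538% of haemoglobin-rich cells. Piezo2 and Ankrd1 were among the 2000 variable genes that shaped the clusters, whereas the other 8 genes were not.

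**Figure D1:**
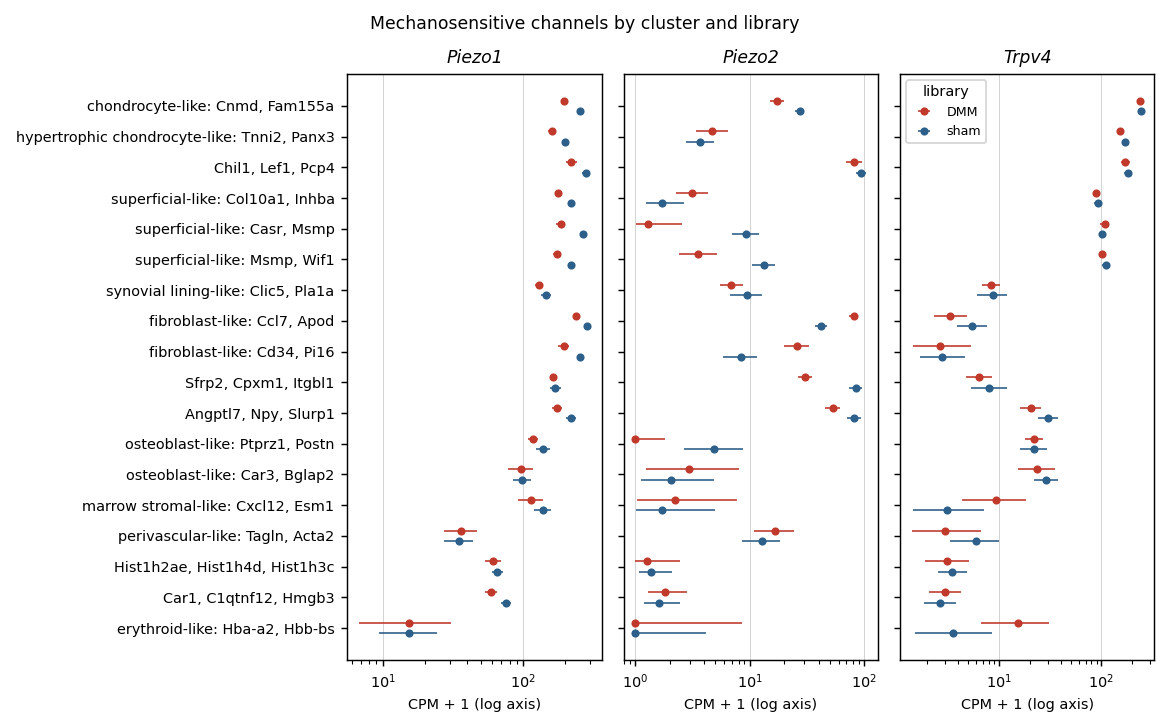
CPM + 1 (log axis) of Piezo1, Piezo2 and Trpv4 in 18 of the 19 clusters, with DMM points (red) above sham points (blue) and bars for Poisson 95% intervals of counting error. Trpv4 is high in the cartilage rows at the top and low in the other connective rows, and Piezo1 is spread over all connective rows. Piezo2 is high in a few rows, among them the Ccl7 and Apod row, where Piezo1 is high too.

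Yap1 (chr9:7931999-8004596, minus strand) and Wwtr1 (chr3:57455649-57575910, minus strand) were present in every connective cluster and nearly absent from haemoglobin-rich cells, with 1.31 CPM in DMM and 2.22 CPM in sham for Yap1, and 4.09 CPM in DMM and 3.68 CPM in sham for Wwtr1. Their order over tissues differed at the top. Among connective clusters Yap1 was highest in the Ptprz1 and Postn osteoblast-like cluster, at 136 CPM in DMM and 210 CPM in sham, and in the Sfrp2, Cpxm1 and Itgbl1 cluster, at 127 CPM in DMM and 214 CPM in sham. It was lowest in hypertrophic-like cells, at 47.1 CPM in DMM and 62.9 CPM in sham. In connective tissue Wwtr1 was highest in 2 cartilage clusters, with 532 CPM in DMM and 607 CPM in sham in the Chil1, Lef1 and Pcp4 cluster and 549 CPM in DMM and 641 CPM in sham in the Cnmd-led chondrocyte-like cluster. Synovial lining-like cells, at 176 CPM in DMM and 209 CPM in sham, and perivascular-like cells, at 200 CPM in DMM and 183 CPM in sham, were among the lowest, as was the Col10a1 and Inhba superficial-like cluster, at 191 CPM in DMM and 222 CPM in sham.

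**Figure D2:**
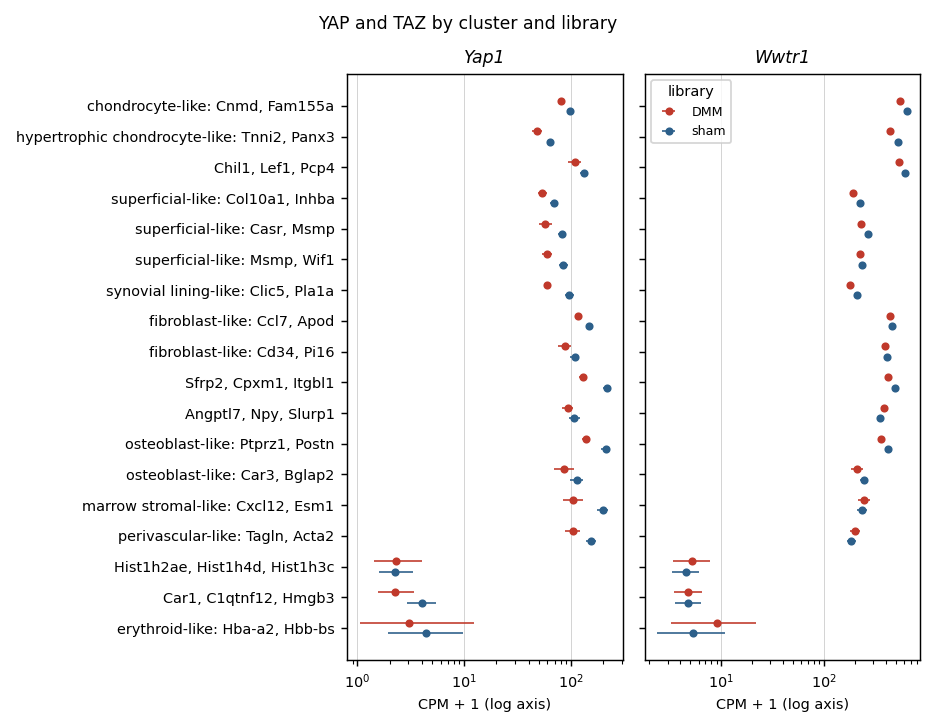
CPM + 1 (log axis) of Yap1 and Wwtr1 in 18 of the 19 clusters, with DMM points above sham points and bars for Poisson 95% intervals. In every connective row the Yap1 point for DMM lies left of the sham point, while for Wwtr1 it does so in 12 of 15. In each of these rows 53.0% to 66.5% of all genes tested had a lower CPM in DMM.

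Among the target genes, Ccn1 (chr3:145646976-145649981, minus strand) was highest in the hypertrophic-like and Cnmd-led chondrocyte-like clusters. Hypertrophic-like cells held 1125 CPM in DMM and 1494 CPM in sham, and the Cnmd-led chondrocyte-like cluster held 1080 CPM in DMM and 1447 CPM in sham. Lining-like cells held 118 CPM in DMM and 213 CPM in sham, and the Ccl7 and Apod fibroblast-like cluster held 175 CPM in DMM and 169 CPM in sham. Ccn2 (chr10:24595442-24598683, plus strand) had a different peak, the Casr and Msmp superficial-like cluster, with 3805 CPM in DMM and 4521 CPM in sham. Ccn2 was also high in lining-like cells, at 1960 CPM in DMM and 2395 CPM in sham, where Ccn1 was low. Fibroblast-like and perivascular-like clusters held under 220 CPM of Ccn2 in both libraries.

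Amotl2 (chr9:102716672-102733418, plus strand) and Lats2 (chr14:57689662-57758388, minus strand) were both highest in the marrow stromal-like cluster, led by Cxcl12 and Adipoq. Amotl2 stood there at 299 CPM in DMM and 359 CPM in sham, and in every other connective cluster between 31.4 and 85.5 CPM in DMM and between 33.4 and 110 CPM in sham. Lats2 stood there at 164 CPM in DMM and 142 CPM in sham. Its lowest connective levels were in cartilage, with 34.4 CPM in DMM and 33.3 CPM in sham in the Cnmd-led cluster. In haemoglobin-rich cells Lats2 held 29.3 CPM in DMM and 36.9 CPM in sham, about its level in chondrocyte-like cells.

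Ankrd1 (chr19:36111961-36120099, minus strand) was almost absent: 19 UMIs in 12 DMM cells and 36 UMIs in 8 sham cells among all kept cells. No UMI was seen in chondrocyte-like cells, which allows up to 0.239 CPM in DMM and 0.158 CPM in sham. Connective tissue held 11 of the 19 UMIs in DMM and 10 of the 36 in sham, and the remaining UMIs lay outside it. The perivascular-like cluster held 8 UMIs in DMM and 0 in sham, and the Angptl7, Npy and Slurp1 cluster held 0 in DMM and 6, all in 1 cell, in sham. Myh11, a smooth muscle myosin, was also carried by 6 of the 12 Ankrd1-positive DMM cells and 0 of the 8 sham cells. Ankrd1 was too rare for a ratio between DMM and sham in any connective cluster.

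**Figure D3:**
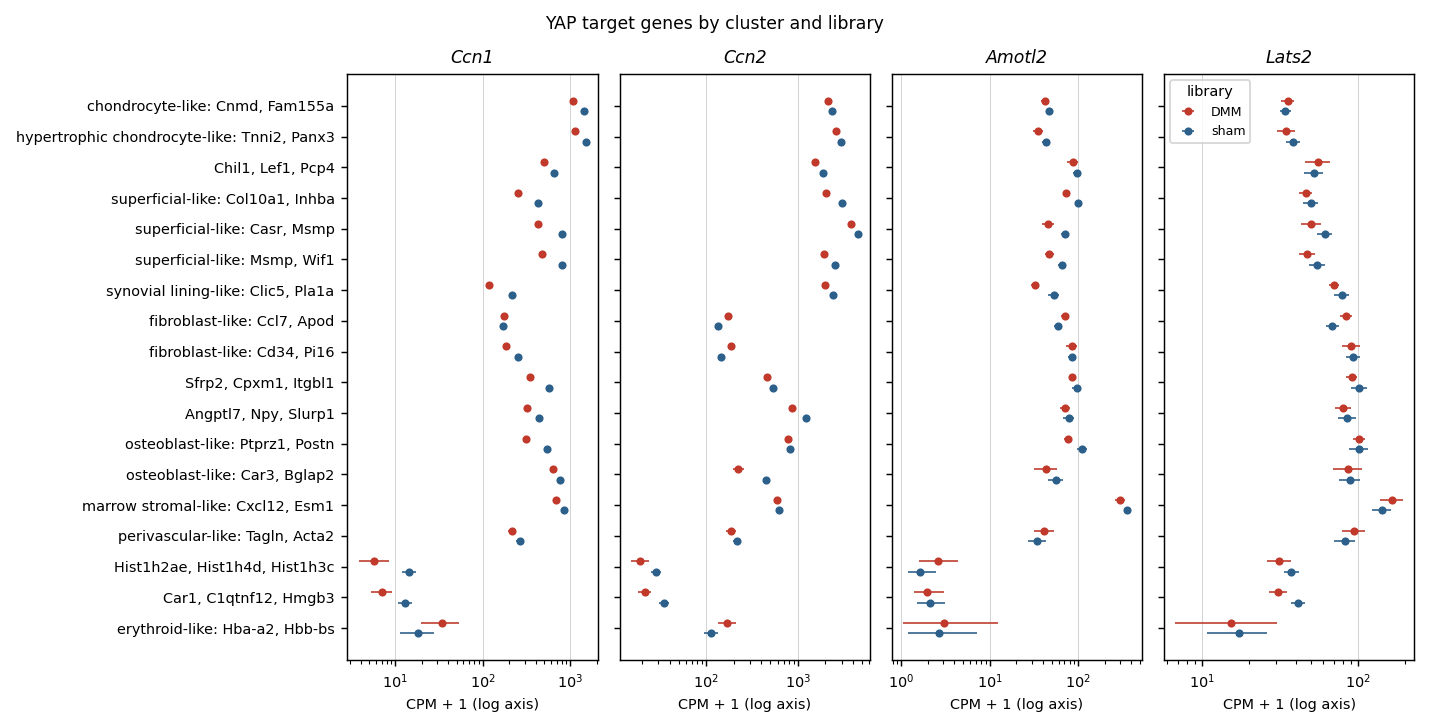
CPM + 1 (log axis) of Ccn1, Ccn2, Amotl2 and Lats2 in 18 of the 19 clusters, with DMM points above sham points and bars for Poisson 95% intervals. Ccn1 and Ccn2 are highest in cartilage rows, and Amotl2 and Lats2 in the marrow stromal-like row. The Ccn1 point for DMM lies left of sham in 14 of 15 connective rows. In each of these rows 53.0% to 66.5% of all genes tested had a lower CPM in DMM.

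Cartilage zones were compared within each library. Superficial-like against chondrocyte-like cells, 4 of 9 measurable genes were at least 1.5-fold lower in DMM and in sham alike (20.9% of 14412 genes were), and 0 were at least 1.5-fold higher (20.6%). Trpv4 stood at 95.5 CPM in superficial-like cells and 240 CPM in chondrocyte-like cells of the DMM library, and at 99.2 CPM and 246 CPM in those of the sham library. Wwtr1 stood at 209 CPM in superficial-like and 540 CPM in chondrocyte-like cells of DMM, and at 238 CPM and 630 CPM in those of sham. Ccn1 was lower by log2 ratios of -1.59 in DMM and -1.17 in sham, and Piezo2 by -3.09 in DMM and -1.95 in sham. With clusters made without these genes and the pathway lists, the Piezo2 ratios became -1.42 in DMM and -0.40 in sham. Ccn2, Amotl2 and Lats2 leaned the other way, with log2 ratios of 0.16, 0.56 and 0.46 in DMM and 0.58, 0.81 and 0.71 in sham. The share of genes called is close to 1 in 5 in each direction, and clusters are defined by their differences, so these values describe zones and were not tested.

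In DMM against sham, a gene was called lower or higher where its CPM differed at least 1.5-fold, the exact 95% interval of the ratio left out 1, and both libraries together held at least 50 UMIs. In superficial-like cells 2 of 9 measurable genes were called lower (13.1% of 12489 genes were) and 0 higher (3.19%). All 9 lay below a log2 ratio of 0, as did 63.0% of all genes tested. The median of the 9 was -0.46, beside -0.15 over all genes tested. In chondrocyte-like cells 1 of 9, Piezo2, was called lower (9.02%) and 0 higher (1.38%), and the median was -0.22 beside -0.16. That Piezo2 ratio of -0.61 (-0.85 to -0.37) fell short of the call under several alternatives, with -0.21 at a Leiden resolution of 2.0 and -0.27 with clusters made without these genes and the pathway lists. Over all connective tissue 1 was called lower (14.7%) and 0 higher (4.06%), with a median of -0.37 beside -0.16. With 9 genes, counts of 1 or 2 are near these shares over all genes, and are not a result about the genes as a group. The medians over all genes, here and beside the lists below, were not matched in gene length, with which the ratio also fell, as given below.

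Ccn1 was called lower in 6 of 15 connective clusters, more than any other of the 10 genes. In superficial-like cells it had 359 CPM in DMM (350 to 368) and 651 CPM in sham (640 to 663), a log2 ratio of -0.86 (-0.90 to -0.82). After each cell was thinned to 2000 UMIs, 40.9% of DMM and 55.1% of sham cells still carried a Ccn1 UMI, and at full depth 74.3% and 84.7% did. The 3 superficial-like clusters were called one by one: 254 against 421 CPM with Col10a1 and Inhba leading (8.79% of genes called lower), 423 against 795 CPM with Casr and Msmp leading (14.2%), and 480 against 809 CPM with Msmp and Wif1 leading (14.7%), DMM against sham in each. The lining-like cluster, at 118 CPM in DMM and 213 CPM in sham, was also called lower (12.3%). So were the Sfrp2, Cpxm1 and Itgbl1 cluster, at 342 CPM in DMM and 568 CPM in sham (11.8%), and the Ptprz1 and Postn osteoblast-like cluster, at 312 CPM in DMM and 546 CPM in sham (14.3%). Over all osteoblast-like cells Ccn1 was the only gene of the 10 called lower (14.4%).

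The lower Ccn1 level was not seen everywhere. Chondrocyte-like cells had 1080 CPM in DMM and 1461 CPM in sham, a log2 ratio of -0.44 (-0.46 to -0.41), and hypertrophic-like cells had -0.41, both short of 1.5-fold. The Ccl7 and Apod fibroblast-like cluster stood at 0.05 (-0.07 to 0.18). When connective tissue was split more finely, into 28 sub-clusters, Ccn1 was below 0 in 25 and above 0 in 3. Among those 3 were a Tnn, Prrx2 and S100a4 sub-cluster, with 336 CPM in DMM and 265 CPM in sham, and a Ccl7, Plau and Ccl2 sub-cluster, with 161 CPM in DMM and 110 CPM in sham. The Tnn, Prrx2 and S100a4 sub-cluster lies within the Sfrp2, Cpxm1 and Itgbl1 cluster. The lower Ccn1 call of that cluster thus did not hold in each of its parts. In haemoglobin-rich cells, which should not express it, Ccn1 stood at 6.71 CPM in DMM and 13 CPM in sham and was called lower (6.39%), as it was in the Hist1h2ae-led (5.82%) and Car1-led (12.6%) clusters of that group. Those levels are a small part of the level in any connective cluster, and the part of free RNA in the difference was not tested.

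Ccn2 moved less. In superficial-like cells it had 2327 CPM in DMM (2305 to 2350) and 3346 CPM in sham (3319 to 3373), a log2 ratio of -0.52 (-0.54 to -0.51), and in chondrocyte-like cells a ratio of -0.10 (-0.13 to -0.08). It was called lower in the Col10a1 and Inhba superficial-like cluster, at 2001 CPM in DMM and 3039 CPM in sham. It was also called lower in the Car3 and Bglap2 osteoblast-like cluster (16.2%), at 224 CPM in DMM and 444 CPM in sham, on 79 DMM and 157 sham cells. In fibroblast-like cells the ratio was above 0, at 0.35 (0.24 to 0.46), with 176 CPM in DMM and 138 CPM in sham. Ccn2 was called higher in the erythroid-like cluster (4.32%), at 170 CPM in DMM and 112 CPM in sham, on 98 DMM and 253 sham cells, and lower in the Hist1h2ae-led and Car1-led clusters. The fibroblast-like levels of Ccn2 were thus not far above those of the erythroid-like cluster, with the same direction. The part of free RNA in the fibroblast-like ratio was not tested.

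In each of the 15 connective clusters, which share the same 2 libraries, 53.0% to 66.5% of all genes tested were below 0. Yap1 was below 0 in all 15, with the interval below 0 in 14 of them and a range of -0.92 to -0.22. It was called lower in 4: the marrow stromal-like cluster (11.3%), at 104 CPM in DMM and 197 CPM in sham; the Sfrp2, Cpxm1 and Itgbl1 cluster; the Ptprz1 and Postn osteoblast-like cluster; and lining-like cells, at 59.0 CPM in DMM and 95.4 CPM in sham. Wwtr1 was called in none, with a range of -0.26 to 0.13 and 12 clusters below 0. Amotl2 was called lower in lining-like cells, at 31.4 CPM in DMM and 51.8 CPM in sham, and in the Casr and Msmp superficial-like cluster, at 45.0 CPM in DMM and 70.2 CPM in sham. Lats2 was called nowhere, with 9 clusters below 0 and 6 above. Lining-like cells thus had 3 of 9 genes called lower, Yap1, Ccn1 and Amotl2 (12.3% of genes were), and 0 called higher (5.32%). All 9 were below 0, as were 59.0% of all genes there.

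Piezo1 was called in none of the 15 connective clusters, with a range of -0.53 to 0.05. It was below 0 in 14 of them, where 53.0% to 66.5% of all genes tested were below 0 too. In superficial-like cells it had 177 CPM in DMM and 233 CPM in sham, a log2 ratio of -0.40 (-0.47 to -0.33). Trpv4 stayed close to 0 in cartilage, where some alternative settings turned its sign. Its ratio was -0.06 (-0.15 to 0.04) in superficial-like and -0.03 (-0.10 to 0.03) in chondrocyte-like cells, and cells of the Cnmd-led cluster thinned to 2000 UMIs carried a Trpv4 UMI in 39.4% of DMM and 38.9% of sham cells. Over all connective tissue its ratio was -0.47, where the chondrocyte-like cells numbered 945 in DMM and 1267 in sham. Hypertrophic-like cells had 0 of the 10 genes called (12.2% of genes called lower), and neither had perivascular-like cells (8.77%).

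Piezo2 was called in both directions in connective tissue. In fibroblast-like cells it was called higher and no gene of the 10 lower (6.46% of genes were called higher and 9.06% lower), at 64.9 CPM in DMM and 27.3 CPM in sham, a log2 ratio of 1.25 (1.04 to 1.46). Both clusters of that class were called higher, at 0.96 in the Ccl7 and Apod cluster (8.55%) and 1.76 in the Cd34 and Pi16 cluster (5.75%). In the Cd34 and Pi16 cluster 1 cell held 13.6% of the 59 DMM UMIs and 1 cell held 34.5% of the 29 sham UMIs. It was called lower in the Sfrp2, Cpxm1 and Itgbl1 cluster at -1.50, in the Msmp and Wif1 superficial-like cluster at -2.27, in the Angptl7, Npy and Slurp1 cluster at -0.63 (9.91%) and in the Cnmd-led chondrocyte-like cluster at -0.69 (8.28%). Superficial-like clusters did not share 1 direction. The Col10a1 and Inhba cluster held 2.14 CPM in DMM and 0.72 CPM in sham, on 19 and 5 UMIs. The Casr and Msmp cluster held 0.28 CPM in DMM and 8.25 CPM in sham, on 1 and 45 UMIs. Both were under the 50 UMIs needed for a call. In the superficial-like class the call rests on 35 DMM and 113 sham UMIs, with a log2 ratio of -1.75 (-2.35 to -1.20). Over the alternative settings that ratio ran from -1.81 to -0.52; it was -0.52 (-1.19 to 0.14) with doublets kept, which ends the call, and -0.88 at a Leiden resolution of 2.0.

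Piezo2 was also read in finer clusters. Within the Ccl7 and Apod cluster, the Angptl1, Fndc1 and Igf1 sub-cluster held 103 CPM in DMM and 98.3 CPM in sham, on 398 DMM and 93 sham cells. The C7, Abca8a and Apod sub-cluster held 68.4 CPM in DMM and 59.4 CPM in sham, and the Ccl7, Plau and Ccl2 sub-cluster held 46.4 CPM in DMM and 15.1 CPM in sham. The Piezo2 level was thus close between libraries in 2 of these 3 and the sub-cluster with the highest level was larger in DMM. Within the Sfrp2, Cpxm1 and Itgbl1 cluster, the Sfrp2, Cpxm1 and Coch sub-cluster held 43.0 CPM in DMM and 122 CPM in sham, on 439 DMM and 267 sham cells. The Tnn, Prrx2 and S100a4 sub-cluster, 480 DMM and 106 sham cells, held 14.4 CPM in DMM and 1.40 CPM in sham, the sham value being 1 UMI. The Piezo2 level was thus lower in DMM within the first of these sub-clusters and higher within the other.

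**Figure D4:**
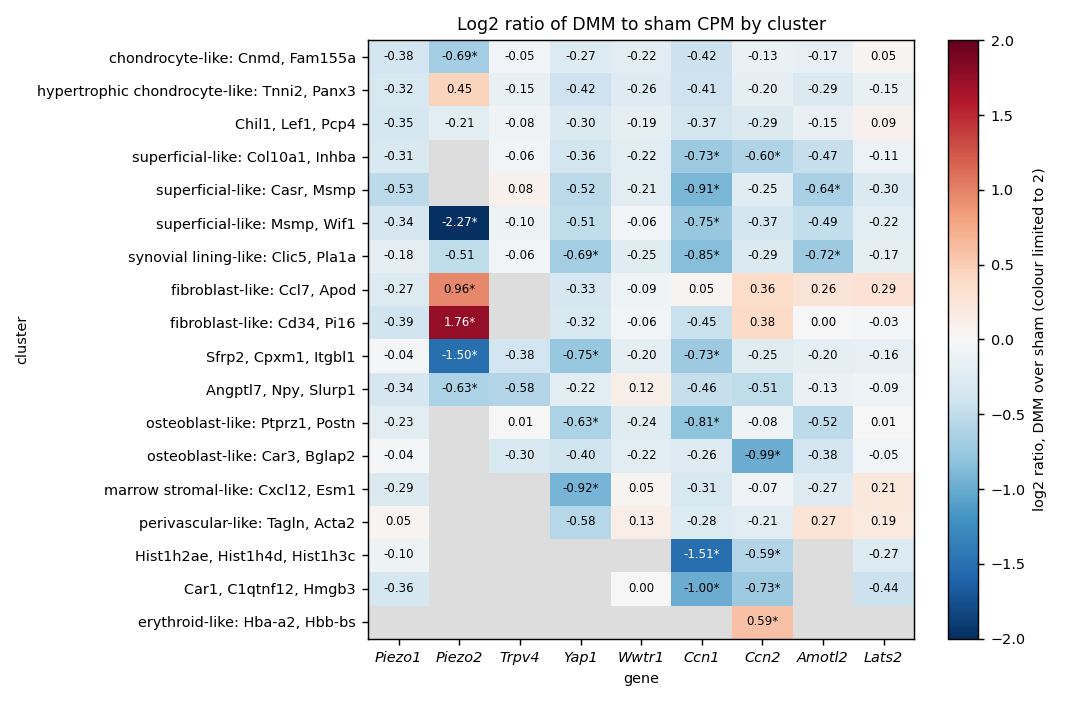
Log2 ratio of DMM to sham CPM of 9 genes (columns) in 18 of the 19 clusters (rows), with called values starred and grey where both libraries together held under 50 UMIs. The Yap1 and Ccn1 columns are below 0 in nearly all connective rows, Trpv4 is near 0 in cartilage rows, and Piezo2 has called values of both signs. In each connective row 53.0% to 66.5% of all genes tested were below 0.

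Genes of the same pathways were read from 6 fixed lists, and the CCN family list also holds Ccn1 and Ccn2. In superficial-like cells the Hippo kinases, scaffolds and TEAD partners had 3 of 21 measurable genes called lower (13.1% of all genes were) and 0 higher (3.19%), with a median log2 ratio of -0.36 beside -0.15 over all genes. They included Lats1, the paralog of Lats2, at 40.7 CPM in DMM and 66.3 CPM in sham, and its cofactor Mob1b, at 19.2 CPM in DMM and 30.0 CPM in sham. Of 16 other YAP and TEAD target genes 5 were called lower and 0 higher, beside the same shares of all genes, with a median of -0.37. Crim1, a membrane regulator of bone morphogenetic proteins, stood at 312 CPM in DMM and 521 CPM in sham, and Tgfb2, a growth factor, at 30.2 CPM in DMM and 47.4 CPM in sham. Of 14 other stretch- or swelling-related channel genes 4 were called lower and 1 higher; among the lower was Trpm7, at 70.5 CPM in DMM and 116 CPM in sham. The 17 SRF and actin genes and the 18 immediate early and dissociation stress genes had 0 called in either direction, with medians of 0.01 and 0.03.

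In superficial-like cells the CCN family had 5 of 6 measurable members below 0 (63.0% of all genes were). Called lower were 2, Ccn1 and Ccn3 (13.1% of all genes were), and 1, Ccn5, was called higher (3.19%). The family's median was -0.53 beside -0.15 over all genes. These counts and this median reuse the Ccn1 and Ccn2 values given above and are not separate from them. Its members differed in direction in other tissues. Ccn5, which lacks the C-terminal domain of its relatives, was called higher in fibroblast-like cells, at 166 CPM in DMM and 60.1 CPM in sham, and in lining-like cells, at a log2 ratio of 1.74 (1.52 to 1.97). Ccn3 was called lower in fibroblast-like cells, at 136 CPM in DMM and 266 CPM in sham, and in lining-like cells, at 30.5 CPM in DMM and 59.7 CPM in sham. Among the other YAP and TEAD targets in lining-like cells, the growth factor Areg was called higher, at 33.0 CPM in DMM and 7.14 CPM in sham, while Myof, a membrane repair protein, was called lower, at 112 CPM in DMM and 205 CPM in sham. That list had 2 called higher and 2 lower of 17, beside 5.32% and 12.3% of all genes. In fibroblast-like cells 2 of 18 SRF and actin genes were called higher (6.46% of all genes were), Acta2, at 41.0 CPM in DMM and 17.7 CPM in sham, and Actn1, at 117 CPM in DMM and 57.3 CPM in sham.

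Quantities other than the surgery moved with these ratios. In superficial-like cells the log2 ratio of DMM to sham fell with the length of the gene from first to last base (Spearman rho -0.48 across 12481 genes, which are not independent). In chondrocyte-like cells rho was -0.47. Genes with spans near those of Piezo1 (69.6 kb), Yap1 (72.6 kb) and Lats2 (68.7 kb) had a median ratio of -0.32 in superficial-like cells, with quartiles of -0.51 and -0.13. The Piezo1 and Yap1 ratios of -0.40 and -0.47 and the Lats2 ratio of -0.22 lie inside those quartiles. For genes as short as Ccn1 (3.01 kb) and Ccn2 (3.24 kb) the median was 0.26, with a lower quartile of -0.01, and both lie below it. Amotl2 (16.7 kb), at -0.46, and Piezo2 (377 kb), at -1.75, also lie below the lower quartiles for their spans, -0.30 and -0.62. In chondrocyte-like cells Ccn1, Ccn2 and Piezo2 lie below the lower quartiles for their spans, and Lats2 and Trpv4 above the upper ones. With the trend on span removed, the superficial-like ratios were -1.24 for Ccn1, -0.89 for Ccn2, -0.27 for Yap1, -0.21 for Piezo1 and 0.05 for Wwtr1. Genes with spans near that of Trpv4 (36.3 kb) had a median of -0.27, with an upper quartile of -0.05, and Trpv4 itself stood at -0.06.

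**Figure D5:**
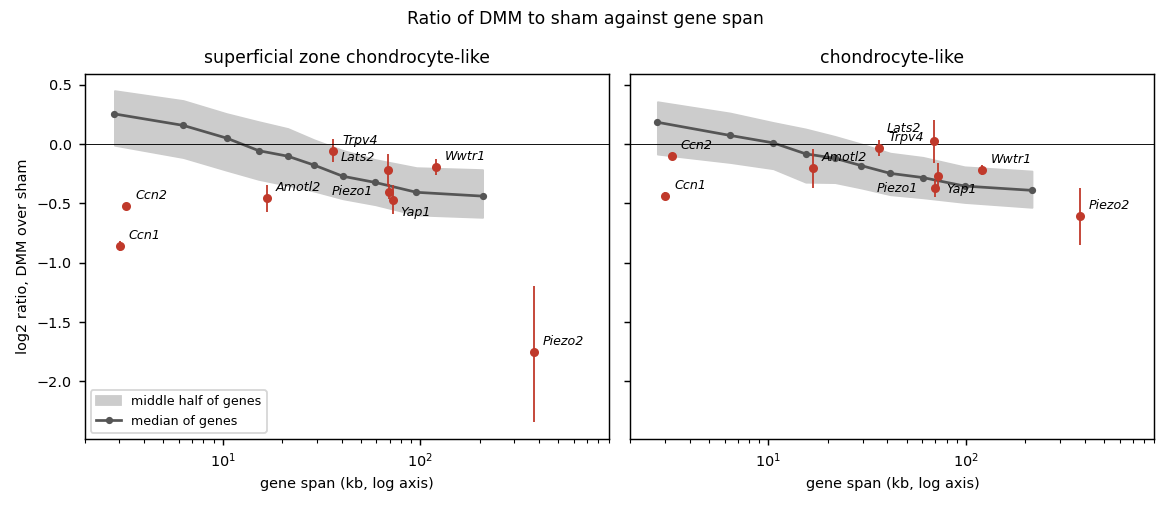
Log2 ratio of DMM to sham against gene span (kb, log axis) in superficial-like (left) and chondrocyte-like cells (right); the line is the median of all genes in each of 10 bins of span, the band holds the genes between the quartiles, and red points are the genes described with 95% intervals. Piezo1 and Yap1 lie in the band in both panels. In superficial-like cells Lats2 lies in it, and Ccn1, Ccn2 and Amotl2 lie under it. In chondrocyte-like cells Ccn1 lies under it, Ccn2 at its lower edge and Lats2 above it. Piezo2, the longest of the genes, lies to the right of the band.

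The list of immediate early and dissociation stress genes, which rise during enzymatic release of cells, includes the heat shock genes Hspa1a and Hspa1b. In superficial-like cells these genes summed to 9018 CPM in DMM and 8448 CPM in sham, a log2 ratio of 0.09. In chondrocyte-like cells they summed to 13216 CPM in DMM and 12091 CPM in sham. In lining-like cells they summed to 9075 CPM in DMM and 10848 CPM in sham, a log2 ratio of -0.26. Of the 18, 4 were called lower there (12.3% of all genes were): Hspa1a, Hspa1b, Fosb and Klf6. The part of gene span and of cell release in the ratios of the 10 genes was not tested.

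Across the 38 profiles of 19 clusters in 2 libraries, Yap1 and Wwtr1 were alike in log2(CPM + 10), with a Pearson r of 0.92, and Yap1 and Amotl2 had an r of 0.87. These profiles share libraries and include haemoglobin-rich clusters where most of the genes are near 0, so the r values are descriptions. The genes whose pattern was most like that of Trpv4 were Ncmap and Hapln1, a cartilage link protein, both with an r of 0.96. Ttc28 was most like Yap1 (0.98), Amotl1 most like Wwtr1 (0.97) and P4ha1, a collagen hydroxylase subunit, most like Ccn1 (0.93). S100a1 was most like Ccn2 (0.91), Rbms1 most like Amotl2 (0.93), Prr12 most like Lats2 (0.94), Pde3b most like Piezo1 (0.90) and the channel gene Trpm3 most like Piezo2 (0.78).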

How the data were processed

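Per the file headers, Cell Ranger 7.1.0 wrote the deposited matrices, which hold raw UMI counts for each barcode. Per the submitters' processing notes, the tools were Cell Ranger 3.0.1, Seurat, STAR, HTSeq and DESeq2, with mm10. Whether intronic reads were counted is not given in the sources used here. The DMM file held 11076 barcodes and 97346999 UMIs, and the sham file 11362 barcodes and 106799078 UMIs, with 24 barcodes in both. A bulk table with 6 per-sample columns was left out, since no sample carries those column names.

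A cell needed 500 genes and no more than 10% mitochondrial UMIs. Scrublet (in scanpy 1.11.5) marked 360 DMM and 463 sham doublets, which were dropped. Log values of counts scaled to 10000, 2000 variable genes, 30 principal components and 15 neighbours fed Leiden clustering (leidenalg 0.10.2, igraph 0.11.9, resolution 1.0, seed 1). A cluster took a "-like" name from 20 marker lists if the mean log2 fold reached 0.75, at least 3 markers passed and 1 or more stood among its 10 leading genes. Unnamed clusters with Serpinh1 in at least 50% of cells also counted as connective tissue.

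Cells are not replicates, so UMIs were summed per population and library (numpy 2.4.6, pandas 2.3.3). Exact 95% intervals (scipy 1.17.1) are Poisson for CPM, conditional binomial for ratios and Clopper-Pearson for shares, and a count of 0 was taken to allow 3 UMIs. All of them cover counting error only. The calls were tested on simulated data that held counting error only, which cannot show how they fare against differences between libraries or mice. The genes named are the 10, up to 4 called genes per list with the largest ratio, and up to 3 per gene with the highest Pearson r. The 10 genes and the lists were chosen with earlier results of these data known. Gene spans came from GENCODE vM21 (GRCm38), which held 99.6% of features, and promoters from RefSeq; those of Ccn2 and Piezo2 were not used here. The lowess trend used statsmodels 0.14.6, clustering used scikit-learn 1.9.0 for neighbours, and figures used matplotlib 3.10.9, under Python 3.11.15. Alternatives covered filters, clustering, scaling, depth, leading cells, span and the UMI minimum. The values of 1 unnamed cluster are not reported here.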

Additional observations from a re-analysis of the deposited data

Results flagged for a closer look

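Piezo2 differed between DMM and sham in opposite directions in different clusters, which is why it is listed here; the difference between clusters was not tested. The log2 ratio of DMM to sham was 0.96 in the Ccl7 and Apod fibroblast-like cluster and 1.76 in the Cd34 and Pi16 fibroblast-like cluster. It was -0.69 in the Cnmd-led chondrocyte-like cluster, -1.50 in the Sfrp2, Cpxm1 and Itgbl1 cluster, -2.27 in the Msmp and Wif1 superficial-like cluster and -0.63 in the Angptl7, Npy and Slurp1 cluster. Each value compares 1 DMM library with 1 sham library. With clusters made without the 10 genes and the pathway lists, the ratio was -1.29 in superficial-like and -0.27 in chondrocyte-like cells.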

How the results depend on the processing

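Over 14 alternatives, 94 counts of called genes stayed within 1.5 times the reported count and 16 moved; no sign of a call turned. Among single levels, ratios and shares of cells, 465 values moved by less than their counting error and 264 moved by more. Part of this tally was set beforehand. Changing the UMI minimum leaves a ratio as it is, and shares of cells were recomputed only after thinning, which takes UMIs away. Genes called lower in superficial-like cells numbered 1, not 2, with doublets kept or a minimum of 200 UMIs, and 3 with the span trend removed. In chondrocyte-like cells the 1 gene called lower (Piezo2) became 0 with at least 1000 genes per cell, doublets kept, a Leiden resolution of 2.0, the genes left out of the variable genes, median-of-ratios size factors, CPM without the 50 most abundant genes, or cells thinned to 2000 UMIs, and thinning gave 1 called higher. Over connective tissue 2 were called lower with the span trend removed. Genes higher in superficial-like than in chondrocyte-like cells numbered 3 at a resolution of 0.5 and 1 with doublets kept, a resolution of 2.0, centring by library or CPM without the abundant genes. The Ccn1 ratio kept its sign in 14 of 14 alternatives, from -1.24 to -0.70 in superficial-like and from -0.75 to -0.27 in chondrocyte-like cells. Such counts of alternatives include the changes of the UMI minimum, which could not move a ratio and are no support for its sign. Yap1 in superficial-like cells ranged from -0.68 to -0.27, while Piezo2 there ranged from -1.81 to -0.52 and Trpv4 kept its sign in 11 of 14 (-0.11 to 0.10). The cause of the moves in counts of called genes and in ratios was not tested. No paired analysis was possible because each group is 1 library. Piezo2 in superficial-like cells and Ankrd1 rest on few UMIs.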
